A study of Mus musculus with 20 samples.

Results

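A set of 10 genes of the MHC class II pathway was followed in dural CNS-associated macrophages (dCAMs), the macrophages of the outermost meningeal layer. They are Cd74, H2-Aa, H2-Ab1, H2-Eb1, H2-DMa, H2-DMb1, H2-DMb2, H2-Oa, H2-Ob and Ciita, taken by symbol from a bulk RNA-seq count table. The 10 were chosen by name from 33243 symbols, with earlier results of these data known. All 10 were among the 16632 genes tested, which had at least 10 counts over the 20 libraries. Each of the 10 mice gave 1 library of tdT+ and 1 of tdT− dCAMs, which made 4 groups of 5 libraries: tdT− CTL, tdT+ CTL, tdT− LPS and tdT+ LPS. All mice were Ccr2CreERT2/+ R26tdT/tdT and were 10 ± 3 weeks old at the first gavage. All of them, controls included, received 200 mg/kg of BLZ945, an inhibitor of the CSF1 receptor that depletes macrophages, on 7 days. Tamoxifen, 2 mg a day, was given on the last of these days and 2 and 4 days later. At 8 weeks after BLZ945, the mice received 2.5 mg/kg of LPS, a bacterial cell wall component, or PBS (CTL), and dCAMs were sorted 12 h later. The CTL mice were 3 females and 2 males, and the LPS mice 2 females and 3 males. The tdT label marks cells in which Ccr2 was active around the tamoxifen doses and their progeny, so that tdT− cells comprise every gated cell without the label. The sort took CD45int CD11b+ CD206int-high cells.

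MHC class II molecules present peptides from the endosomal pathway to CD4+ T cells. An alpha and a beta chain pair in the endoplasmic reticulum with the invariant chain CD74, which fills the peptide groove and guides the complex to endosomes, where proteases degrade it to a short peptide. The chaperone H2-DM exchanges that peptide for others, and H2-DO holds H2-DM back. CIITA, the product of Ciita, does not bind DNA itself but docks on the proteins assembled at the X and Y boxes of class II promoters and is required for their transcription in most cells. Among the macrophages of the brain borders, class II expression differs between subsets, and it is a usual marker for dividing them.

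The libraries held between 6017650 and 18925908 counts, with more counts in the LPS libraries (12073566 to 18925908) than in the CTL libraries (6017650 to 12208203). All 13 listed markers of border macrophages, among them Mrc1, Csf1r and Lyve1, were above 3 counts in every library. Their summed level was 7600 to 14500 CPM (counts scaled to a common library size by TMM) in tdT− CTL, 16400 to 20100 in tdT+ CTL, 8970 to 11100 in tdT− LPS and 11100 to 14900 in tdT+ LPS dCAMs. Members of this list moved apart after LPS in both populations. The median of Csf1r went from 2700 to 1300 CPM in tdT− and from 6170 to 1480 CPM in tdT+ dCAMs, and the medians of Mrc1 and Lyve1 also fell. That of Itgam went from 142 to 992 CPM in tdT− and from 178 to 1040 CPM in tdT+ dCAMs, and that of Fcgr1 also rose. Class II genes are also used by dendritic cells and B cells. The 9 dendritic cell markers summed to 695 to 3340 CPM in tdT− CTL and 340 to 790 CPM in tdT− LPS, against 55.4 to 94.2 in tdT+ CTL and 23.2 to 72.5 in tdT+ LPS dCAMs. Within this sum the markers moved apart in tdT− dCAMs: Cd209a was at 315 to 2770 CPM in CTL and 3.44 to 61.5 CPM in LPS libraries, whereas Ccr7, a chemokine receptor of migrating dendritic cells, was at 0 to 214 and 222 to 599 CPM. The tdT− CTL library of mouse 174 stood apart with the highest sum, including 348 CPM of Flt3, and Xcr1 stayed at or under 3 counts in all 20 libraries. Of the B cell markers, Pax5 was at 0 in every library, whereas Ighm, the immunoglobulin heavy chain of IgM, lay between 575 and 1250 CPM in CTL and between 0.895 and 11.8 CPM in LPS libraries. The 6 neutrophil markers summed to at most 179 CPM in CTL and to 242 to 823 CPM in LPS libraries. Of these, S100a8 and Mmp8 rose in both populations, and the median of Retnlg rose in tdT− dCAMs alone. The group medians of S100a9, Ly6g and Cxcr2 were at most 0.984 CPM. The 6 monocyte markers summed to 548 to 1130 CPM in tdT− CTL, 160 to 467 in tdT+ CTL, 315 to 796 in tdT− LPS and 139 to 294 in tdT+ LPS dCAMs. Ccr2, among the monocyte markers, was at 419 to 906 CPM in tdT− and 160 to 463 CPM in tdT+ CTL libraries and at 55.2 to 92.2 and 9.65 to 22.6 CPM after LPS. Depth, Ighm, Ccr2, the neutrophil markers S100a8 and Mmp8, and Cd209a and Ccr7 in tdT− dCAMs thus moved with LPS. So did members of the border macrophage list in both populations and its sum in tdT+ dCAMs. The part of the marker RNA in the LPS results was not tested.

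LPS was compared with CTL first, separately in each population. In both populations 8 of the 10 genes were called lower after LPS, namely the invariant chain, the 3 classical chains, the 3 H2-DM genes and Ciita, and neither H2-DO gene passed the test. A gene was called when edgeR's quasi-likelihood test gave a Benjamini-Hochberg adjusted p under 0.05 and a log2 fold change beyond 1. By that rule LPS lowered 4.27% of all tested genes in the tdT− and 2.52% in the tdT+ population. The median log2 fold change of the 10 genes was −2.81 in tdT− and −2.75 in tdT+ dCAMs, against 0.02 and 0.01 over all tested genes. For the same 8 genes, all LPS libraries lay below all CTL libraries in both populations, as did 3.31% of all genes in tdT− and 7.19% in tdT+ dCAMs. Because the genes were chosen with earlier results of these data known, the values over all tested genes are a background and not a test of the set. In bulk libraries, fewer cells that express a gene and less RNA of it per cell cannot be told apart.

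**Figure D1:**
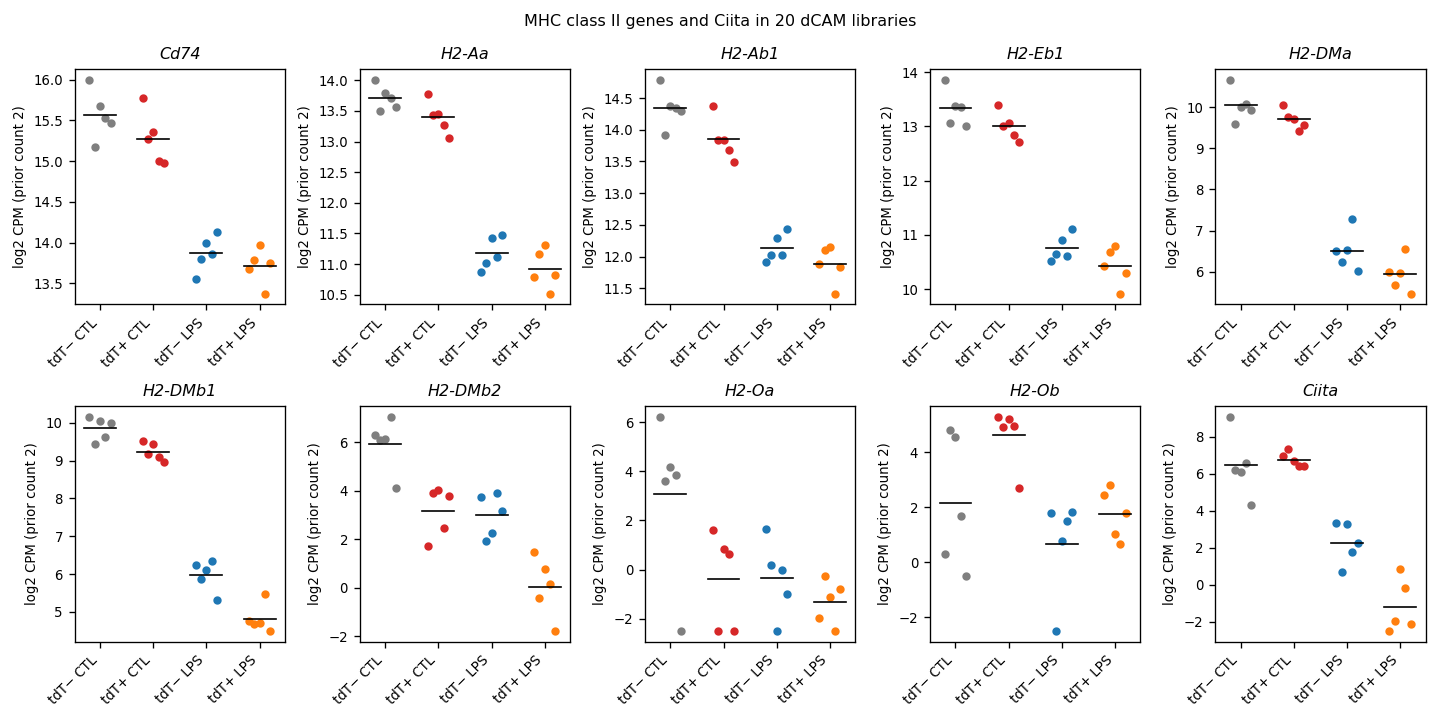
Level of each of the 10 genes in every library, as log2 CPM on the vertical axis with a scale of its own in each panel, for the 4 groups of 5 libraries on the horizontal axis. Points are libraries and the line is the group mean; for 8 of the genes no LPS point reaches a CTL point of the same population, whereas the groups overlap for H2-Oa and H2-Ob.

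Cd74, the invariant chain, was the most abundant of the genes. In tdT− dCAMs its level was 65620, 37100, 52560, 47130 and 45350 CPM in CTL mice 174, 175, 177, 178 and 179, and 12070, 14290, 16320, 14920 and 17870 CPM in LPS mice 54, 56, 59, 60 and 61. In tdT+ dCAMs of the same mice in the same order it was 56010, 39480, 42120, 32940 and 32240 CPM after PBS and 13140, 14140, 16010, 10610 and 13740 CPM after LPS. The lowest CTL library was above the highest LPS library in both populations. Cd74 fell 3.28-fold in tdT− dCAMs (log2 −1.71 ± 0.16 SE, edgeR adjusted p = 1.87e-07), and in tdT+ dCAMs its log2 fold change was −1.58 ± 0.16 (adjusted p = 5.18e-07).

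The classical chains followed. H2-Aa, the alpha chain of I-A, measured 16510, 11510, 14200, 13370 and 12030 CPM in tdT− CTL and 1866, 2076, 2763, 2231 and 2838 CPM in tdT− LPS libraries, in the mouse order given above. In tdT+ dCAMs H2-Aa was at 14030, 11070, 11120, 9819 and 8533 CPM after PBS and at 1767, 2287, 2554, 1465 and 1816 CPM after LPS. It fell 5.74-fold in tdT− (log2 −2.52 ± 0.16 SE, adjusted p = 1.97e-09) and 5.52-fold in tdT+ dCAMs (−2.46 ± 0.16, adjusted p = 2.99e-09), and no LPS library came near the CTL range. H2-Ab1, the beta chain that pairs with it, was at 28400, 15410, 21280, 20800 and 20150 CPM in tdT− CTL and at 3864, 4165, 4992, 4179 and 5565 CPM in tdT− LPS libraries. The tdT+ levels of H2-Ab1 were 21200, 14740, 14730, 13110 and 11560 CPM in CTL and 3779, 4399, 4556, 2727 and 3666 CPM in LPS libraries. It fell 4.66-fold (−2.22 ± 0.18, adjusted p = 2.53e-08) and 3.94-fold (−1.98 ± 0.17, adjusted p = 8.62e-08) in tdT− and tdT+ dCAMs. H2-Eb1, the beta chain of I-E, had 14920, 8573, 10660, 10500 and 8269 CPM in tdT− CTL against 1473, 1596, 1917, 1553 and 2196 CPM in tdT− LPS libraries. Its tdT+ libraries held 10840, 8183, 8569, 7314 and 6676 CPM after PBS and 1380, 1648, 1772, 964.7 and 1265 CPM after LPS. The fall of H2-Eb1 was 6.06-fold in tdT− (−2.60 ± 0.19, adjusted p = 7.59e-09) and 5.92-fold in tdT+ dCAMs (−2.56 ± 0.19, adjusted p = 7.87e-09), again without overlap.

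The H2-DM genes, which encode the peptide editor, had larger fitted fold changes than the classical chains. H2-DMa, its alpha chain, was at 1631, 773.6, 1023, 1075 and 977.9 CPM in tdT− CTL and at 91.13, 75.38, 92.71, 154.1 and 64.41 CPM in tdT− LPS libraries. Values in tdT+ dCAMs were 1064, 869.3, 834.8, 685.2 and 758.8 CPM after PBS and 63.69, 51.23, 62.62, 93.03 and 43.98 CPM after LPS. H2-DMa fell 11.5-fold in tdT− (log2 −3.52 ± 0.27 SE, adjusted p = 1.96e-08) and 13.4-fold in tdT+ dCAMs (−3.74 ± 0.27, adjusted p = 8.48e-09). The beta chain gene H2-DMb1 went from 1146, 690.4, 1051, 789.4 and 1030 CPM in tdT− CTL to 75.07, 58.29, 68.32, 81.91 and 39.85 CPM in tdT− LPS libraries. From 728.7, 580.3, 699.7, 544.7 and 496.2 CPM in tdT+ CTL libraries it went to 26.87, 25.57, 25.88, 44.4 and 22.41 CPM in tdT+ LPS libraries. The fall was 14.6-fold (−3.86 ± 0.25, adjusted p = 1.88e-09) and 21.0-fold (−4.39 ± 0.26, adjusted p = 3.64e-10), and the highest LPS library of either population lay far below the lowest CTL library.

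H2-DMb2 encodes a second H2-DM beta chain, and its gene lies beside H2-DMb1. It was at 79.22, 67.52, 68.86, 132.2 and 16.88 CPM in tdT− CTL and at 13.19, 3.657, 4.546, 14.68 and 8.702 CPM in tdT− LPS libraries, so that the groups were separated only by the gap between 14.68 and 16.88 CPM. In tdT+ dCAMs the values were 3.083, 14.96, 16.03, 5.343 and 13.72 CPM after PBS and 2.566, 0.5774, 1.531, 0.9381 and 0.1135 CPM after LPS. The fall was 8.14-fold in tdT− (log2 −3.02 ± 0.76 SE, adjusted p = 0.0106) and 9.23-fold in tdT+ dCAMs (−3.21 ± 0.77, adjusted p = 0.0115). The transcripts of H2-DMb1 and H2-DMb2 share 369 windows of 50 identical bases, 27.2% of those of H2-DMb1 and 26.8% of those of H2-DMb2, so reads from these stretches cannot be assigned to 1 gene. Of the counts of both genes, H2-DMb2 took 1.61 to 14.3% in tdT− CTL, 0.421 to 2.69% in tdT+ CTL, 5.9 to 17.9% in tdT− LPS and 0.504 to 8.72% in tdT+ LPS libraries.

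The H2-DO genes, H2-Oa for the alpha and H2-Ob for the beta chain, were low and variable. H2-Oa had 74.67, 12.19, 17.92, 14.22 and 0 CPM in tdT− CTL and 2.947, 0.9702, 0, 0.8199 and 0.3253 CPM in tdT− LPS libraries, and the library at 0 in the CTL group made the groups overlap. It was below 3 CPM in all tdT+ libraries, with 2.921, 0, 1.615, 1.362 and 0 CPM after PBS and 0.07546, 0.6599, 0.2783, 0 and 0.3972 CPM after LPS. The log2 fold changes of −4.54 ± 1.67 SE (adjusted p = 0.0793) and −2.01 ± 1.53 (adjusted p = 0.554) did not pass the edgeR test. H2-Ob reached 1.062, 27.67, 23.07, 3.048 and 0.5233 CPM in tdT− CTL and 3.297, 0, 1.536, 2.624 and 3.334 CPM in tdT− LPS libraries. In tdT+ dCAMs it was at 38.78, 29.82, 36.45, 30.7 and 6.285 CPM after PBS and at 5.282, 6.764, 1.879, 1.407 and 3.235 CPM after LPS, where only mouse 179 of the CTL group came down into the LPS range. Its log2 fold changes were −2.35 ± 1.10 in tdT− (adjusted p = 0.153) and −2.93 ± 1.12 in tdT+ dCAMs (adjusted p = 0.143), with 95% intervals of −4.64 to −0.07 and −5.27 to −0.60 before adjustment.

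Ciita, the transactivator, was called in both populations, with wide intervals. In tdT− CTL libraries it was at 543.6, 72.9, 68.36, 95.16 and 19.75 CPM, with mouse 174 far above the other 4, and in tdT− LPS libraries at 10.1, 1.418, 9.462, 3.198 and 4.636 CPM. The tdT+ CTL libraries were more alike, at 123.2, 159.6, 103.6, 85.28 and 85.47 CPM. After LPS the tdT+ libraries held 0, 0.08249, 1.6, 0.7036 and 0.05675 CPM, which stand for 0, 1, 23, 9 and 1 counts. Ciita fell 27.7-fold in tdT− dCAMs (log2 −4.79 ± 0.99 SE, 95% interval −6.84 to −2.74, adjusted p = 0.00228). In tdT+ dCAMs the log2 fold change was −7.80 ± 1.15 (95% interval −10.19 to −5.41, adjusted p = 8.64e-05), a size that depends on the treatment of libraries with 0 or 1 count. Without the tdT− CTL library of mouse 174, an alternative added after the data had been seen, the log2 fold change of Ciita in tdT− dCAMs was −3.49 (adjusted p = 0.0071), smaller than the −3.80 of H2-DMb1. The same 8 genes were called in each population without that library, and so they were with all counts thinned to the depth of the smallest library.

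**Figure D2:**
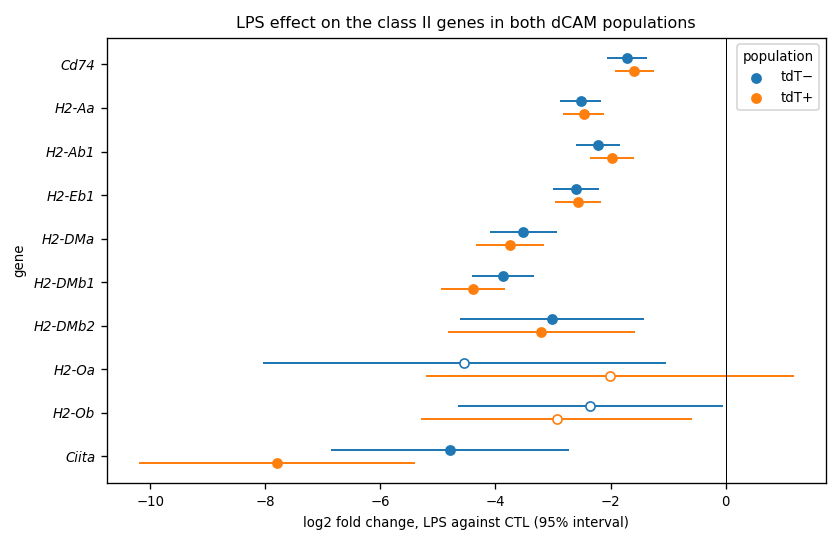
Log2 fold change of LPS over CTL for each gene (horizontal axis, with 95% intervals as bars) in tdT− dCAMs (blue) and tdT+ dCAMs (orange), filled where the gene was called and open where it was not. All 20 points lie below 0, between −1.58 for Cd74 in tdT+ and −7.80 for Ciita in tdT+ dCAMs, and the 4 open points are those of H2-Oa and H2-Ob.

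Promoters of 6 of the genes, 4 that were called after LPS and the H2-DO genes that were not, are shown because CIITA acts through X and Y boxes. The 150 bases before the annotated start are given 5′ to 3′ on the gene's strand, from RefSeq for GRCm38.p6, with the X box core ACNNATG and the Y box core GATTGG in capitals. H2-DMb2 (chr17:34145099-34145248, plus strand), H2-DMb1 (chr17:34153041-34153190, plus strand), H2-Ob (chr17:34238755-34238904, plus strand) and H2-Eb1 (chr17:34305717-34305866, plus strand) hold both cores. H2-Aa (chr17:34287824-34287973, minus strand) holds the Y core alone on its own strand, and H2-Oa (chr17:34092229-34092378, plus strand) holds the X core at 2 adjoining positions far from the Y core.
H2-DMb2: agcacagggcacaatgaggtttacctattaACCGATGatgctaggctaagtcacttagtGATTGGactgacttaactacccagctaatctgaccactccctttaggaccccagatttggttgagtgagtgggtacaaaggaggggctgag
H2-DMb1: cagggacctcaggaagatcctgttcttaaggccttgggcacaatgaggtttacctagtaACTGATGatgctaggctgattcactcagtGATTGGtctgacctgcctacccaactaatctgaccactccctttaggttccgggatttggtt
H2-Ob: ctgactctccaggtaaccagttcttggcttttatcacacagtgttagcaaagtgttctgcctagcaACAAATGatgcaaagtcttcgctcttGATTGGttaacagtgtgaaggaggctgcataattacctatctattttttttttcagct
H2-Eb1: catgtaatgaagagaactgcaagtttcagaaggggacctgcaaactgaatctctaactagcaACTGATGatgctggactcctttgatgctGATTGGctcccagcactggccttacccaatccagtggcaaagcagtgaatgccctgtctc
H2-Aa: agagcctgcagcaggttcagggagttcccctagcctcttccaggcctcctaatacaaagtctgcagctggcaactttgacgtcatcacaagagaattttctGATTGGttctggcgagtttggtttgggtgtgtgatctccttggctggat
H2-Oa: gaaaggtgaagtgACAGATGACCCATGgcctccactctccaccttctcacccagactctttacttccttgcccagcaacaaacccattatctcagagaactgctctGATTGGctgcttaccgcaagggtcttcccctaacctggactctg

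The cores stood at like distances in the first 4 of these promoters. The X core began 120 bases before the start in H2-DMb2, 91 in H2-DMb1, 84 in H2-Ob and 88 in H2-Eb1, and the bases between X and Y numbered 22, 22, 19 and 21. The start used for H2-DMb2 lies inside that gene's span of chr17:34143229-34151553, and so do its printed bases. The Y core alone began 49 bases before the start of H2-Aa, and in H2-Oa the nearest X and Y cores were 79 bases apart. RefSeq promoters were matched for 7 of the 10 genes (Cd74, H2-Ab1 and Ciita had no entry). H2-DMa had entries at different starts, with windows at chr17:34122582-34122881 and chr17:34125268-34125567. Both windows lie inside the gene's span of chr17:34119693-34139101. Neither core was found in the 150 bases of either entry, but the latter entry held a Y core 199 bases before its start. In windows from 250 bases before to 50 after the start, searched on both strands, the X core was present in 30.2% and the Y core in 16.1% of 32851 promoters. X followed by Y on the gene's strand, with 10 to 40 bases between them, was present in 64, or 0.195%. Of the 4 genes that held the pair, H2-DMb1, H2-DMb2 and H2-Eb1 were called after LPS and H2-Ob was not. H2-DMa and H2-Aa were called and did not hold it in these letters, and H2-Ab1, also called, was not searched.

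The 10 genes took up a large share of each library. In tdT− CTL dCAMs they accounted for 8.09 to 12.78% of all counts and in tdT+ CTL dCAMs for 6.451 to 10.65%. After LPS the share was 2.023 to 2.701% in tdT− and 1.583 to 2.398% in tdT+ dCAMs. Cd74 alone made up 49.97 to 52.06% of the counts of the 10 genes in tdT− CTL and 51.04 to 53.85% in tdT+ CTL libraries, and 62 to 64.47% and 62.68 to 66.84% after LPS. The remaining class II RNA after LPS thus held proportionally more invariant chain in every library.

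**Figure D3:**
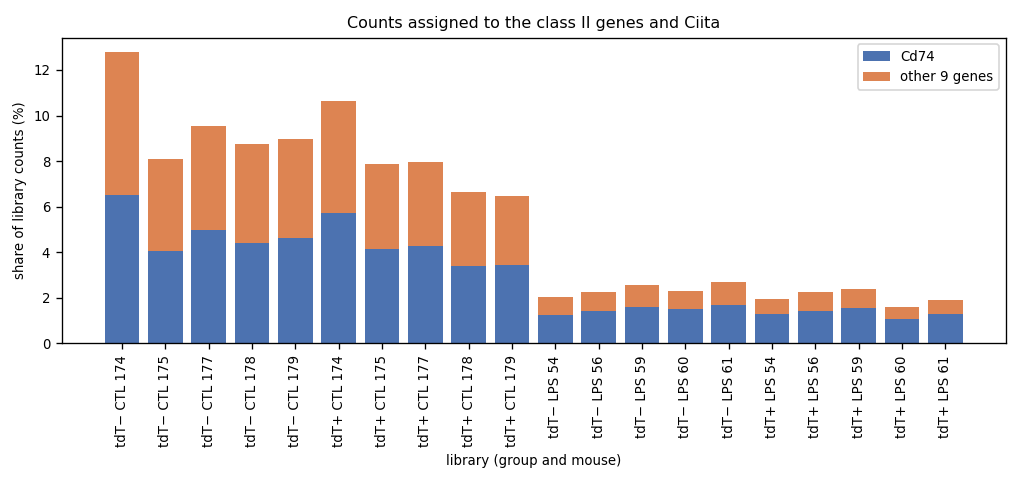
Share of each library's counts, in percent, taken by Cd74 (lower part of the bar) and by the other 9 genes (upper part), 1 bar per library. The CTL bars reach 6.451 to 12.78% and the LPS bars 1.583 to 2.701%.

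Per length of transcript, the classical genes stood far above the others in all groups. In tdT− CTL dCAMs the mean level was 35143 CPM per kb for Cd74, 17498 for H2-Ab1, 11989 for H2-Aa and 6342 for H2-Eb1, followed by 670 for H2-DMb1, 661 for H2-DMa, 51.2 for H2-DMb2, 26.6 for Ciita, 21.9 for H2-Oa and 4.15 for H2-Ob (n = 5). Neighbours in this order whose ranges over libraries overlapped were H2-Ab1 and H2-Aa, H2-DMb1 and H2-DMa, and each neighbouring pair among the last 4. In tdT+ CTL dCAMs the order of the 4 highest was the same, and the lowest 4 were Ciita with 18.6, H2-Ob with 10.6, H2-DMb2 with 7.46 and H2-Oa with 1.08 CPM per kb. In tdT− LPS dCAMs the means were 10705 for Cd74, 3757 for H2-Ab1, 2088 for H2-Aa and 1047 for H2-Eb1, then 57.6 for H2-DMa, 46.1 for H2-DMb1, 6.29 for H2-DMb2, 0.959 for Ciita, 0.931 for H2-Oa and 0.808 for H2-Ob. In tdT+ LPS dCAMs Cd74 was at 9594 and Ciita, now the lowest, at 0.0813 CPM per kb. Ranges overlapped there between neighbours in the order H2-Ob, H2-DMb2, H2-Oa and Ciita, but not between H2-Ob and Ciita. These orders rest on the length of 1 principal transcript per gene.

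The genes did not fall by equal factors. Ratios to H2-Ab1 within a library, chosen after the values had been seen, were compared between LPS and CTL by two-sided exact permutation tests over the 252 assignments of libraries, 8 tests in all. The log2 ratio of Cd74 to H2-Ab1 rose by 0.50 in tdT− and by 0.40 in tdT+ dCAMs after LPS, and that of H2-Aa to H2-Ab1 fell by 0.32 and 0.50. The ratio of H2-DMb1 to H2-Ab1 fell by 1.67 in tdT− and by 2.44 in tdT+ dCAMs, and that of Ciita to H2-Ab1 by 5.97 in tdT+ dCAMs. Each of these 7 had an exact permutation p = 0.00794 (adjusted p = 0.00907), the smallest that 5 against 5 allows, with no overlap between groups. For Ciita in tdT− dCAMs the ratio fell by 1.98 with overlapping groups (exact permutation p = 0.0476, adjusted p = 0.0476). Within the same libraries Cd74 fell less than H2-Ab1, and H2-Aa and H2-DMb1 fell more. Ciita also fell more, with limits in both populations. In tdT− dCAMs its groups overlapped, and mouse 174 held far more Ciita than the other CTL libraries. In tdT+ dCAMs the size rests on LPS libraries with 0 or 1 count.

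The populations were compared next, within the CTL mice, to ask whether dCAMs derived from Ccr2-expressing cells differed in class II RNA from those without the label. Only H2-DMb2 was called, lower in tdT+ dCAMs, while 1.27% of all tested genes were called lower there. In each of the 5 mice the tdT+ library held less H2-DMb2 than the tdT− library, and the groups did not overlap (3.083 to 16.03 against 16.88 to 132.2 CPM). The log2 difference was −2.78 ± 0.75 SE (6.85-fold, adjusted p = 0.0368), and it was −2.78 with an adjusted p of 0.129 when the mouse was fitted as a fixed term. The median log2 difference of the 10 genes was −0.44, against −0.01 over all tested genes (edgeR unadjusted p under 0.05 for 4 of the 10 and for 23.5% of all tested genes). DESeq2's Wald test called H2-DMb2 and H2-Oa, and 3.35% of all genes lower in tdT+ dCAMs.

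The classical genes were slightly lower in tdT+ CTL dCAMs, by less than the test could call. Log2 differences were −0.29 for Cd74 (95% interval −0.61 to 0.03, adjusted p = 0.263), −0.31 for H2-Aa (−0.63 to 0.01, adjusted p = 0.235), −0.49 for H2-Ab1 (−0.84 to −0.14, adjusted p = 0.0956) and −0.35 for H2-Eb1 (−0.71 to 0.02, adjusted p = 0.238). H2-Aa, H2-Ab1 and H2-Eb1 were lower in the tdT+ library of 5 of 5 mice, and Cd74 of 4 of 5. H2-DMb1 was also lower in all 5 mice (−0.63, adjusted p = 0.110) and H2-DMa in 4 (−0.38, adjusted p = 0.382). The H2-DO chains went apart: H2-Oa was lower in tdT+ dCAMs in 4 of 5 mice (−4.34 ± 1.66, adjusted p = 0.133) and H2-Ob was higher in 5 of 5 (1.36 ± 1.06, adjusted p = 0.495), and neither passed the test. Ciita was lower in only 2 of 5 mice (−0.52, 95% interval −2.28 to 1.23, adjusted p = 0.797), and without the tdT− CTL library of mouse 174 the fitted difference was 0.81 in the other direction.

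Within the LPS mice no gene of the 10 was called between tdT+ and tdT− dCAMs, as against 0.0301% of all tested genes lower in tdT+ dCAMs. By edgeR's unadjusted p under 0.05 there were 4, against 5.41% of all genes. DESeq2's Wald test called H2-DMb1, H2-DMb2 and Ciita (0.253% of all genes lower), and so did voom with quality weights (0.637%). H2-DMb1 was lower in the tdT+ library of 5 of 5 mice (log2 −1.16 ± 0.23 SE, 2.23-fold, edgeR adjusted p = 0.0988), and so were H2-DMa (−0.60 ± 0.25, adjusted p = 0.913) and Ciita (−3.53 ± 0.96, adjusted p = 0.913). H2-DMb2 was lower in 5 of 5 mice without overlap between the groups (−2.96 ± 0.76, adjusted p = 0.789). Log2 differences of the classical genes were small, at −0.16 for Cd74 (95% interval −0.48 to 0.16), −0.25 for H2-Aa (−0.58 to 0.07), −0.25 for H2-Ab1 (−0.60 to 0.10) and −0.31 for H2-Eb1 (−0.68 to 0.05). H2-Oa differed by −1.80 and H2-Ob by 0.78, with intervals across 0.

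**Figure D4:**
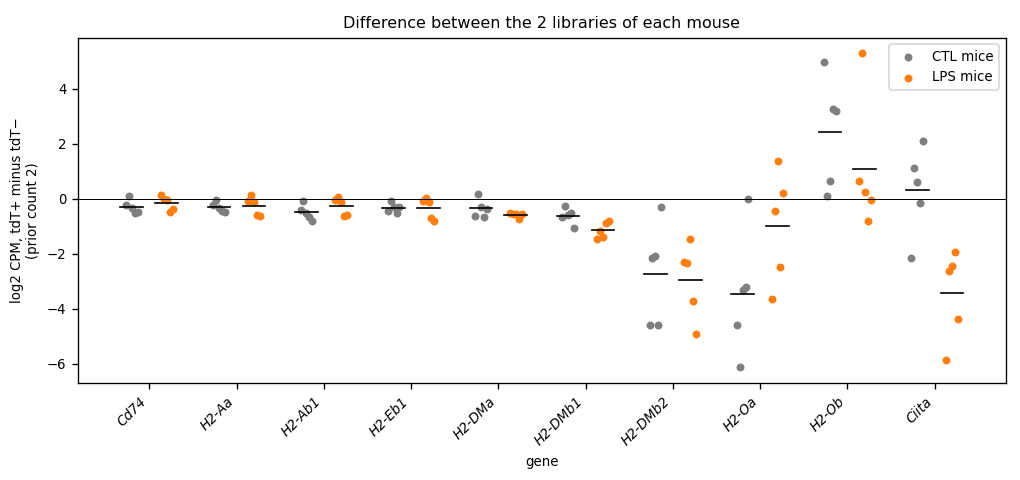
Difference between the tdT+ and the tdT− library of each mouse in log2 CPM (vertical axis) for each gene (horizontal axis), in CTL mice (grey) and LPS mice (orange), with the mean as a line. The points of H2-DMb2 lie below 0 in all 10 mice, those of the 4 classical genes within a narrow band near 0, and those of Ciita spread widely in CTL mice and lie below 0 in all LPS mice.

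The change from CTL to LPS was then compared between the populations. By edgeR none of the 10 genes was called for a different LPS effect, while 1.26% of all tested genes were, and the unadjusted p was under 0.05 for 1 gene of the 10, Ciita, and for 13.1% of all genes. The Ciita effect in tdT+ minus that in tdT− dCAMs was −3.01 ± 1.24 SE on the log2 scale (95% interval −5.60 to −0.42, edgeR adjusted p = 0.280, DESeq2 adjusted p = 0.160), and voom with quality weights called it (−4.66, adjusted p = 0.035, with 1.32% of all genes called). For the classical genes the difference was 0.13 for Cd74 (95% interval −0.32 to 0.58), 0.06 for H2-Aa (−0.40 to 0.52), 0.24 for H2-Ab1 (−0.25 to 0.74) and 0.03 for H2-Eb1 (−0.48 to 0.55). H2-DMa differed by −0.22 (−0.95 to 0.50), H2-DMb1 by −0.53 (−1.19 to 0.13, adjusted p = 0.542) and H2-DMb2 by −0.18 (−2.15 to 1.79). The intervals of H2-Oa (−1.95 to 7.01) and H2-Ob (−3.68 to 2.52) were too wide to tell.

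Dendritic cell marker RNA moved with some of these results and not with others. Its summed level in tdT− CTL libraries was 3340, 694.8, 1263, 1134 and 919.5 CPM in mice 174, 175, 177, 178 and 179, and mouse 174 also had the highest Cd74, H2-Aa, H2-Ab1, H2-Eb1, H2-DMa, H2-DMb1, H2-Oa and Ciita of its group. In that library Flt3 was at 348 and Zbtb46 at 197 CPM. The tdT+ CTL library of the same mouse, with a dendritic cell sum of 80.32 CPM, was likewise the highest of its group for Cd74, H2-Aa, H2-Ab1, H2-Eb1, H2-DMa and H2-DMb1. Among the tdT− LPS libraries, that of mouse 54 had the highest dendritic cell sum, 790.4 CPM, but the lowest Cd74, H2-Aa, H2-Ab1 and H2-Eb1. Its H2-Oa and Ciita were the highest of that group. All 9 markers together were higher in tdT− than in tdT+ dCAMs, as were H2-DMb2 and, in 4 of 5 CTL mice, H2-Oa. Their part in these differences between populations was not tested. The stromal markers reached 3750 CPM in the tdT− CTL library of mouse 179, which had the lowest H2-DMb2, H2-Oa, H2-Ob and Ciita of its group, and the part of this was not tested either.

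**Figure D5:**
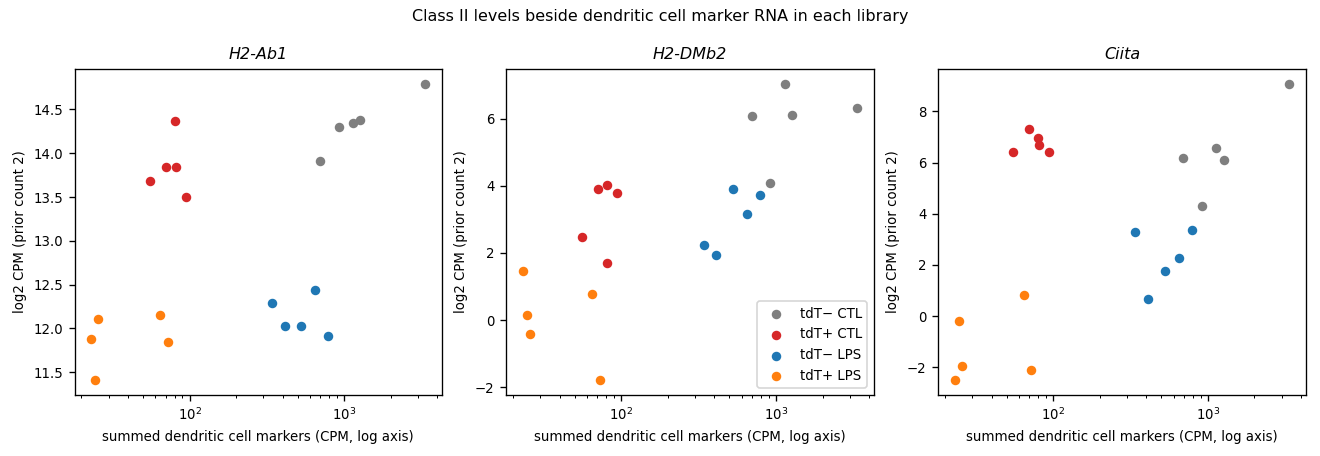
Level of H2-Ab1, H2-DMb2 and Ciita (log2 CPM, vertical axis) against the summed CPM of 9 dendritic cell markers (horizontal axis, log scale), 1 point per library, coloured by group. The tdT+ libraries lie at sums of 23.2 to 94.2 CPM and the tdT− libraries at 340 to 3340 CPM, and within each of these ranges the LPS points lie below the CTL points.

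Other genes of the pathway were counted by list, against 11.5% of all tested genes called in either direction by LPS in tdT− dCAMs, 5.89% in tdT+ dCAMs and 4.28% between populations in CTL mice. None of the 7 genes of the complex on class II promoters (Rfx5, Rfxank, Rfxap, Nfya, Nfyb, Nfyc and Creb1) was called in any comparison. Of the 11 genes upstream of Ciita, Irf1, a transcription factor of the interferon response, was lower after LPS in both populations, from a mean of 409 to 195 CPM in tdT− (log2 −1.07, edgeR adjusted p = 0.00937) and from 449 to 177 CPM in tdT+ dCAMs (−1.35, adjusted p = 0.00211). Prdm1, whose product represses Ciita in plasma cells, rose in tdT− dCAMs from a group at 0 in 4 of 5 libraries to a mean of 38.4 CPM (adjusted p = 0.00512). It was also higher in tdT+ than in tdT− CTL dCAMs (mean 32.3 against 0.759 CPM, adjusted p = 0.0154) and was not called after LPS in tdT+ dCAMs (0.53, adjusted p = 0.902). The other 9 genes of that list, among them Irf8, Spi1 and Ifngr1, were not called in any comparison. Ifngr1 and Spi1 missed the call by the fold change alone. Ifngr1 was lower after LPS in tdT− (log2 −0.73, edgeR adjusted p = 0.00208) and in tdT+ dCAMs (−0.93, adjusted p = 0.00022). Spi1 was higher after LPS in tdT− dCAMs (0.73, adjusted p = 0.00768). Of the 2 further class II genes in the table, H2-Eb2 and H2-Ea, neither was called. H2-Ea, the alpha chain that pairs with H2-Eb1, was at 0 in all 10 tdT− libraries and had 10 counts in 1 tdT+ CTL library.

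Of the 8 genes of endosomal processing, 3 were called after LPS in each population. The cathepsin gene Ctsl rose from 359 to 1598 CPM in tdT− (log2 2.15, edgeR adjusted p = 4.26e-05) and from 415 to 2246 CPM in tdT+ dCAMs (2.44, adjusted p = 1.11e-05), whereas Ctsh fell from 1441 to 519 CPM (−1.47, adjusted p = 2.25e-06) and from 1200 to 420.5 CPM (−1.51, adjusted p = 1.37e-06). The thiol reductase gene Ifi30 fell in tdT− dCAMs (−1.06, adjusted p = 0.0262) and was lower in tdT+ than in tdT− CTL dCAMs (−1.14, adjusted p = 0.0362), and the protease gene Ctsd fell in tdT+ dCAMs (−1.07, adjusted p = 0.000319). Among 4 measured genes of class II turnover, Cd83, which keeps surface class II from being degraded, fell in both populations from 3173 to 322 CPM (−3.30, adjusted p = 8.32e-08) and from 2415 to 218 CPM (−3.47, adjusted p = 3.86e-08). Marchf1, the ubiquitin ligase that Cd83 opposes, rose in tdT− dCAMs from 90.3 to 392 CPM (2.12, adjusted p = 0.0380) and stood at 132 and 524 CPM in tdT+ dCAMs (1.98, adjusted p = 0.0817). Of the 2 partners of Cd74, Mif, its ligand, rose in both (1.60, adjusted p = 0.0127, and 2.01, adjusted p = 0.00335), and Cd44, a coreceptor, rose in tdT+ dCAMs (3.03, adjusted p = 0.000365). None of the genes named from these lists was called for a difference of the LPS effect between populations.

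Genes outside the 10 whose levels followed the classical genes most closely were sought over the 20 libraries, as the root-mean-square difference of centred log2 CPM from the mean profile of Cd74, H2-Aa, H2-Ab1 and H2-Eb1. The nearest of 5817 other genes, whose median difference was 1.74 log2 units, were Cst3 (0.22), Lyz2 (0.39), Atp5if1 (0.41), Ptms (0.43) and Tmem176a (0.43). Cst3, which encodes the protease inhibitor cystatin C, had group means of 4662, 4060, 1212 and 1124 CPM in tdT− CTL, tdT+ CTL, tdT− LPS and tdT+ LPS dCAMs. Lyz2, the lysozyme gene of myeloid cells, had 12290, 11910, 2081 and 2422 CPM. Among the 10 genes themselves the 4 that form the profile had differences of 0.09 to 0.29, H2-DMa 0.84, H2-DMb1 1.10, H2-DMb2 1.68, H2-Ob 1.85, H2-Oa 2.14 and Ciita 2.49. By this measure Cst3 was nearer to the classical genes than any of the H2-DM, H2-DO or Ciita genes was. The measure counts a larger fall in the same direction as distance, and the filter on level was not applied to the 10 genes. It therefore does not show whether the 10 genes moved together less closely.

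The genes sit in 3 places of the mouse genome (GRCm38.p6, used here for position only). H2-Oa (chr17:34092379-34095234), H2-DMa (chr17:34119693-34139101), H2-DMb2 (chr17:34143229-34151553), H2-DMb1 (chr17:34153191-34160229), H2-Ob (chr17:34238905-34245908), H2-Ab1 (chr17:34263227-34269418), H2-Aa (chr17:34282744-34287823) and H2-Eb1 (chr17:34305867-34316674) follow each other in the class II region. Ciita lies at chr16:10480014-10531064 with 19 exons in its principal transcript, and Cd74 at chr18:60803849-60812652. The counts are per gene, so that no value refers to a single exon. The 2 genes of the region that were not called after LPS, H2-Oa and H2-Ob, are not neighbours, and H2-Ob lies between H2-DMb1 and H2-Ab1, both of which were called. The fitted log2 fold change of H2-Ob was also below 0, at −2.35 in tdT− and −2.93 in tdT+ dCAMs.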

How the data were processed

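Bulk RNA-seq was measured in 20 libraries of sorted dCAMs, 5 in each of 4 groups taken from the labels. The deposited values are raw counts per gene, which the authors made, per the submitters' notes, with bcl2fastq 2.20, STAR 2.7.11a and featureCounts 2.0.6, and the notes also name DESeq2 1.46.0. Libraries came from a low-input PCR kit without molecular identifiers. The genome build behind the counts is not settled, since the methods name several. RefSeq GRCm38.p6 therefore served only for positions, promoters and transcript lengths.

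Counts were analysed in R 4.3.3 with edgeR 4.0.16: genes with a total under 10 were left out (16611), libraries were scaled by TMM, and 1 quasi-likelihood model over all 20 libraries gave 5 contrasts (LPS against CTL in each population, tdT+ against tdT− in each treatment, and the difference of the LPS effects). The common biological coefficient of variation was 1.13. Calls needed a Benjamini-Hochberg adjusted p under 0.05 over all 16632 tested genes and a log2 fold change beyond 1 in either direction. Log2 CPM used a prior count of 2, and 3 counts were taken as the detection floor. Intervals are 95% intervals of the model, and its p-values measure the spread between the libraries of a group, which came from different mice. The model holds no term for the mouse, so it left out the pairing of tdT+ with tdT− libraries. Scripts were tested on simulated data.

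The 2 libraries of a mouse share an animal and so pair. Their deviations from the group means correlated with r of −0.0046 to 0.0461 in CTL and 0.2285 to 0.4488 in LPS mice. Alternatives were DESeq2 size factors, DESeq2 1.42.0, limma 3.58.1 voom with quality weights, other filters, the compared libraries alone, mouse as a block, sex as a covariate, thinned counts and leaving out each mouse. Omission of 1 library and a limma-trend block were added after the data had been seen.

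All 10 genes are given in every library. In each pathway list, genes called in any contrast are named and Rfx5 to Creb1, Irf8, Spi1 and Ifngr1 are named as examples of those not called. The 5 nearest genes were sought among genes whose log2 CPM averaged 4 or more. The 10 genes and all lists were chosen with earlier results of these data known. No protein sequences were used.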

Additional observations from a re-analysis of the deposited data

Results flagged for a closer look

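In 40 sets of 5 libraries (10 genes in 4 groups), 4 held a library far from the others by Dixon's test at the 95% level (critical value 0.71). For normally distributed values in independent sets, chance gives about 1 in 20. The values here were CPM without a log, and the sets share libraries, so that rate is only a rough guide. Ciita in the tdT− CTL library of mouse 174 was at 543.6 CPM against 19.75 to 95.16 CPM in the other libraries of its group, and H2-Oa in the same library was at 74.67 CPM against 0 to 17.92 CPM. Dendritic cell markers summed to 3340 CPM in that library, and their part in either value was not tested. H2-DMb1 in the tdT+ LPS library of mouse 60 was at 44.4 CPM, above 22.41 to 26.87 CPM in the others. H2-Ob in the tdT+ CTL library of mouse 179 was at 6.285 CPM, below 29.82 to 38.78 CPM in the others. None of the 10 genes was called for a difference of the LPS effect between tdT+ and tdT− dCAMs by edgeR, whose unadjusted p was under 0.05 for Ciita alone.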

How the results depend on the processing

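Over all alternatives, 1014 of the fold changes and calls of the 10 genes kept direction and side of the threshold, 14 became calls, 16 lost the call and 26 turned direction. In both LPS comparisons the fold changes stayed below 0 in every alternative, and 6 to 10 of the genes were called. DESeq2's Wald test called both H2-DO genes in tdT− (1164 of 16632 genes called lower) and H2-Ob in tdT+ dCAMs (730 of 16632). H2-Ob was also called in tdT+ dCAMs by voom with quality weights (1337 of 16632 lower) and with the compared libraries alone (1079 of 16094). H2-Oa was also called in tdT− dCAMs without mouse 179 (808 of 16435 lower). Ciita in tdT− dCAMs moved from −4.79 to −3.49 without mouse 174 (adjusted p = 0.0105). The lowest count, 6, came from the voom replicate block, whose fitted trend of the spread fell to −0.228 at the most abundant genes and so gave unusable weights for H2-Ab1, H2-Eb1 and H2-Aa. A limma-trend replicate block called 8, 8, 1, 0 and 0 of the genes, the counts reported. Between populations in CTL mice, 2 genes were called by DESeq2 and 0 without the filter on low counts, with the compared libraries alone, with mouse as fixed terms or with sex as a covariate. Leaving out each mouse gave 0 to 1. H2-DMb2 was the gene that lost its call, in 12 alternatives, among them without mouse 174, 175, 177, 178, 54, 56, 59 or 60, with its fold change negative in each (adjusted p 0.000392 to 0.288 over all alternatives). Between populations in LPS mice, DESeq2 and voom with quality weights called 3, and for the difference of the LPS effects voom with quality weights called 1, Ciita. The difference of Ciita between populations in CTL mice turned from −0.52 to 0.34 with quality weights, to 0.35, 0.36 and 0.31 in the voom, fixed-term and limma-trend replicate blocks and to 0.81 without the tdT− CTL library of mouse 174, and ranged from −0.73 to 0.77 when each mouse was left out. Differences of the LPS effect near 0 also turned. The voom replicate block gave −0.10 for H2-Aa, −0.26 for H2-Ab1 and −0.16 for H2-Eb1. Without the tdT− CTL library of mouse 174, H2-Aa was at −0.03 and H2-Eb1 at −0.13, and thinned counts gave 0.22 for H2-DMb2. Leaving out each mouse gave −0.002 to 0.20 for Cd74, −0.05 to 0.16 for H2-Aa, −0.09 to 0.17 for H2-Eb1 and −0.74 to 0.18 for H2-DMb2. Apart from the voom weights, the cause was not tested. Low counts limit H2-Oa outside the tdT− CTL group and Ciita in tdT+ LPS dCAMs, where 3 of 5 libraries held at most 1 count.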
